A study of Mus musculus with 16 samples.

Results

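The 100 immunoglobulin kappa variable (Igkv) genes of the mouse were examined for DNA methylation in B and T cells. Members were all genes that GENCODE vM21 types as IG_V_gene and whose symbol starts with Igkv, which gave 100 of the 55413 annotated genes on chromosomes 1-19, X and Y. They lay on chromosome 6 of mm10 (GRCm38) between positions 67555497 and 70704177, on the centromeric side of Igkc (chr6:70726435-70726966, plus strand). The distance to Igkc ran from 22.3 kb at Igkv3-1 to 3170.2 kb at Igkv2-137. The 60 Igkv pseudogenes of the same locus were kept apart as a comparison.

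Whole-genome bisulphite sequencing (WGBS) had been done on 16 libraries from spleen cells of C57BL/6J mice, 6 to 8 weeks old, and the labels name no treatment or transgene in either group. Of these, 8 were resting B cells depleted of CD43+ cells on magnetic columns and 8 were naive CD4+CD62L+ T cells. Each cell type had 4 male and 4 female libraries, and each sex had 2 libraries by standard bisulphite treatment (BS), which reads 5-methylcytosine and 5-hydroxymethylcytosine alike, and 2 by oxidative bisulphite (oxBS), which reads only 5-methylcytosine as methylated. The material was pooled and no animal is named, so the spread and the p-values are those between libraries, which may be technical in part.

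A kappa light chain is assembled in developing B cells. The RAG recombinase joins an Igkv gene to an Igkj segment upstream of Igkc, guided by the recombination signal sequence (RSS) that follows the coding end of each Igkv gene. The RSS of an Igkv gene is typically a heptamer (CACAGTG), a spacer of 12 bp and a nonamer (consensus ACAAAAACC). The full nonamer consensus stood at that distance from the end in 32 of the 100 members. The RSS of an Igkj segment has a longer spacer. Joining deletes the DNA between the partners where both lie on the same strand and inverts it where they do not. Igkv promoters typically carry an octamer (ATTTGCAT, the complement of ATGCAAAT) that Oct-1 and Oct-2 bind with their B cell coactivator OCA-B. T cells rearrange receptor genes instead and leave kappa largely in its germline order.

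The methylation level is the percentage of calls that were methylated, and all differences are in percentage points, B minus T cells. The sequences at both ends of the genes carry most of what follows, so they are shown first, 5′ to 3′ on the strand of the gene. The 200 bp upstream of 4 members with low levels in B cells are given, with the octamer and every CpG in capitals. They are chr6:67895972-67896171 (plus) for Igkv14-126, chr6:68256189-68256388 (plus) for Igkv14-111, chr6:67913373-67913572 (plus) for Igkv11-125 and chr6:68736781-68736980 (minus) for Igkv19-93.
Igkv14-126: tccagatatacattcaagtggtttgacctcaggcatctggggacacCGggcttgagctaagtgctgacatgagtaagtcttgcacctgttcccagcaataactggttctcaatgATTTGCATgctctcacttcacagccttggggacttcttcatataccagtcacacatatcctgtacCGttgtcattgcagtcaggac
Igkv14-111: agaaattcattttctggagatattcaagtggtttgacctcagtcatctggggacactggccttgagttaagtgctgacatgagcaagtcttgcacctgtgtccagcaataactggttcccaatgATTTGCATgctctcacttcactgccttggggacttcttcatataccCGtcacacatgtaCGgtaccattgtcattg
Igkv11-125: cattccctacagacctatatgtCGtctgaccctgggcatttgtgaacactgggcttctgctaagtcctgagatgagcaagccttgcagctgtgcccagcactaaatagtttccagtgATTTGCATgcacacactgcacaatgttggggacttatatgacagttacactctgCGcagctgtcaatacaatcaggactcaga
Igkv19-93: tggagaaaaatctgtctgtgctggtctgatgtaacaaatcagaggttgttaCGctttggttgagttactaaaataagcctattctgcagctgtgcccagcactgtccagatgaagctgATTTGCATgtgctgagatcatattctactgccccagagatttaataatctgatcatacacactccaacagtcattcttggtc

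In these 4 sequences the octamer began 86, 76, 83 and 82 bases before the annotated start, in that order. In Igkv14-126 the CpG at -154 was methylated in 2.13% of B and 90.6% of T cell calls, and the CpG at -21 in 2.82% and 91.8%. In Igkv14-111 the CpG at -30 stood at 8.93% in B and 97.6% in T cells, and that at -17 at 7.14% and 100%. The 1 CpG of Igkv19-93, at -149, had no methylated call among 56 in B cells and 94.2% among 52 in T cells. Taking 3 counts as the limit for a count of 0, 0 of 56 leaves room for a level of about 5.36%. This treats the calls as independent, is not a hard maximum and leaves out the spread between libraries.

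The same stretch is shown for 3 members without this difference: chr6:69963874-69964073 (minus) for Igkv5-37, chr6:69943649-69943848 (minus) for Igkv12-38 and chr6:70371239-70371438 (plus) for Igkv6-17. Capitals again mark the octamer and CpGs.
Igkv5-37: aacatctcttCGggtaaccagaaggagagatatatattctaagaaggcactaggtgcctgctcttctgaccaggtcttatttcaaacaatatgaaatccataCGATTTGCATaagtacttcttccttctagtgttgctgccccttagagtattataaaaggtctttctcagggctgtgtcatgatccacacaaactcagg
Igkv12-38: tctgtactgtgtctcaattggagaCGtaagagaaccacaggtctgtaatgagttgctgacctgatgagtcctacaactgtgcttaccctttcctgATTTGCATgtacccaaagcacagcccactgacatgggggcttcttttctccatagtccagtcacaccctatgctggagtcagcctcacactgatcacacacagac
Igkv6-17: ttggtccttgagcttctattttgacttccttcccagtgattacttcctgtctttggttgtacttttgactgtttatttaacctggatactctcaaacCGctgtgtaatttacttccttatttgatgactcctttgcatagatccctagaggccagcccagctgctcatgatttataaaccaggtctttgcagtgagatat

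Igkv5-37 and Igkv12-38 hold the same octamer letters as the members with low levels. Even so, the 200 bp upstream of Igkv5-37 stood at 91.7% in B and 90.4% in T cells. For Igkv12-38 the values were 90.9% and 94.4%. Igkv6-17 has no exact ATTTGCAT in this window but holds CTTTGCAT, which differs in its first letter. Its CpG at -103 was low in both cell types, at 1.43% in B and 10.6% in T cells.

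CpGs are scarce in these genes. The 100 gene bodies, with a median length of 554 bp, held 230 CpGs in all, a median of 2 and at most 7 per gene. Of the members, 8 had no CpG in the gene, 30 had 1 and 62 had at least 2, and 57 of the last could be tested, with at least 10 calls in at least 6 libraries of each cell type. In the 500 bp upstream there were 141 CpGs. Here 32 members had none, 24 had 1 and 44 had at least 2, of which 20 could be tested. Together 66 members were tested in at least 1 window, 11 in both and 34 in neither. Per library the tested members had a median of 24 calls over the gene and 18 upstream, so a level from 10 calls moves in steps of 10 points. Across the genome the libraries held between 123693203 and 171130063 calls, with means of 5.64 to 7.80 calls per CpG in B and 7.06 to 7.76 in T cells, and the mean level was 80.5% in B and 79.2% in T cells.

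Pooled over all members, the Igkv genes were less methylated in B than in T cells in every library. Over the gene, B cell libraries ranged from 68.4% to 77.2% with a median of 73.5%, and T cell libraries from 81.4% to 83.9% with a median of 82.3%. The means were 73.0% ± 3.64 (SD, n = 8) and 82.4% ± 0.815 (SD, n = 8), a difference of -9.39. Over the 500 bp upstream, B cell libraries ranged from 62.9% to 71.9% with a median of 68.6%, and T cell libraries from 85.6% to 87.8% with a median of 86.7%. The means were 67.4% ± 3.46 (SD, n = 8) and 86.7% ± 0.742 (SD, n = 8), a difference of -19.3. The lowest T cell library stood above the highest B cell library in both windows. Over the gene, BS and oxBS libraries averaged 73.2% and 72.8% in B cells and 82.6% and 82.2% in T cells. Upstream, they averaged 68.7% and 66.1% in B cells and 86.9% and 86.5% in T cells.

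**Figure D1:**
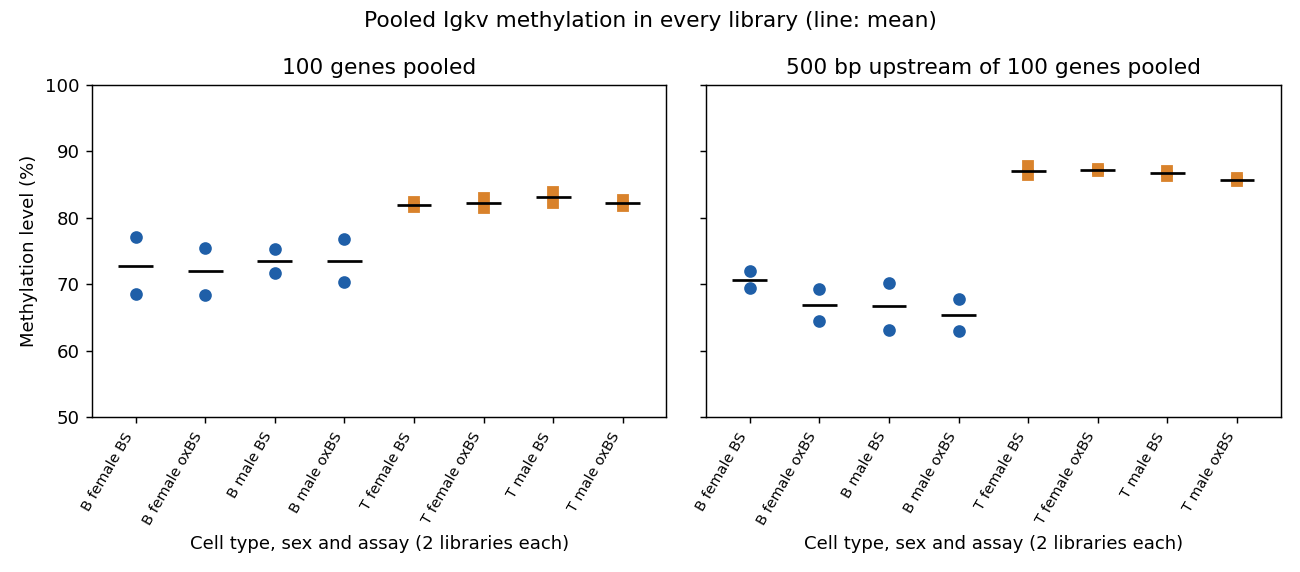
Pooled methylation level (%, axis from 50 to 100) of the Igkv genes (left) and of the 500 bp upstream of them (right), with 1 point for each of the 16 libraries by cell type, sex and assay and a line at the mean of each 2 libraries. Members without a CpG in a window add no calls. All 8 T cell libraries lie above all 8 B cell libraries, by a wider gap upstream.

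A model of the methylated and unmethylated calls with cell type, sex and assay called 19 of the 57 tested members less methylated in B cells over the gene, or 33.3%, at an adjusted p under 0.05 across all genes. Over all 46537 genes tested, 3.41% were called lower in B cells. No member was called higher in B cells, against 12.7% of all genes. Over the 500 bp upstream, 11 of the 20 tested members were called lower, or 55%, against 2.22% of the 42128 windows tested. None was called higher, against 3.92%. All tested genes held a median of 69 CpGs over the gene and 8 upstream, the tested members 3 in each window. The shares over all genes, here and below, thus come largely from windows with more CpGs, where smaller differences can pass. The median difference over the tested members was -5.32 over the gene and -20.01 upstream, where all genes had +0.72 and +0.29. At an unadjusted p under 0.05, in either direction, there were 24 members over the gene and 13 upstream, against 27.4% of all genes and 17.3% of all upstream windows. All B cell libraries lay below all T cell libraries at 10 members over the gene, against 1.47% of all genes, and at 11 upstream, against 1.19% of all windows, and these were all called.

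**Figure D2:**
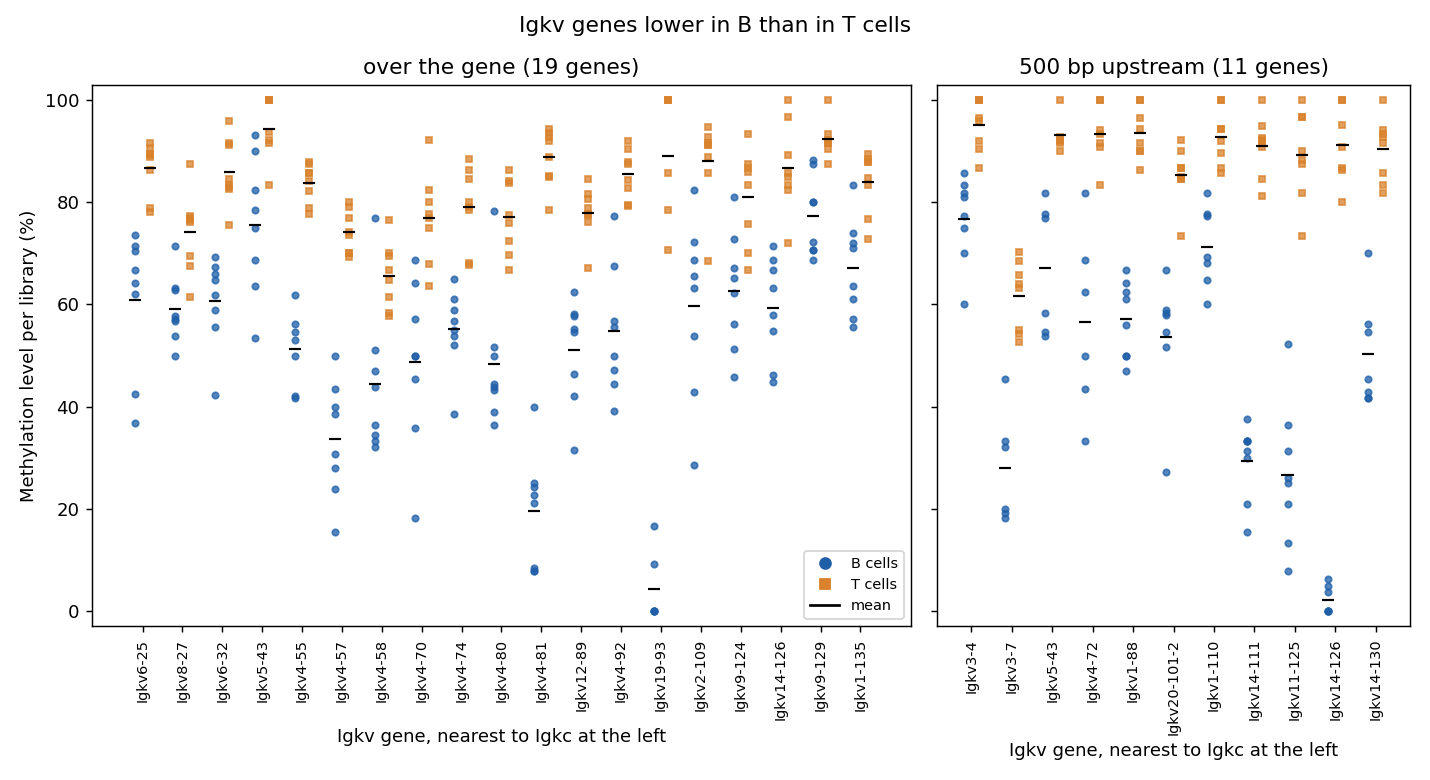
Methylation level (%) in B and T cells of the Igkv genes called lower in B cells, over the gene and over the 500 bp upstream, with points for single libraries and the mean of each cell type. Igkv19-93 and Igkv4-81 over the gene and Igkv14-126, Igkv11-125 and Igkv14-111 upstream have the widest gaps.

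Igkv19-93, the only member of its family, had the largest difference over the gene. Its 6 B cell libraries with enough calls ran from 0% to 16.7% with a median of 0%, and its 6 T cell libraries from 70.6% to 100% with a median of 92.9%. The means were 4.29% ± 7.07 and 89.1% ± 12.8 (SD, n = 6 each), with an adjusted p of 0.00113 and an exact permutation p of 0.00216, the smallest that 6 against 6 can give. Both CpGs lie at the 5′ end of the gene, 6 and 23 bases after the start, and the low CpG in its printed upstream sequence lies at -149.

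Igkv4-81 followed, with B cell libraries from 7.69% to 40% (median 21.9%) and T cell libraries from 78.6% to 94.4% (median 90.4%). Its means were 19.6% ± 11.3 and 88.8% ± 5.52 (SD, n = 8 each), with an adjusted p of 2.65e-06 and an exact permutation p of 0.000155, the smallest that 8 against 8 can give. The difference lay at the 3′ end: the CpGs at 478 and 487 bases after the start stood at 11.9% and 15.0% in B cells against 93.7% and 98.7% in T cells. The CpG at 81 was at 58.6% in B and 51.9% in T cells.

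Family 4 held many of the members called over the gene. Of its 26 members, 15 were tested and 8 called lower, with a median difference of -21.3. Igkv4-57 spanned 15.4% to 50% across B cell libraries (median 34.6%) and 69.2% to 80% across T cell libraries (median 73.9%), with an adjusted p of 0.000292 and an exact permutation p of 0.000155. Igkv4-55 averaged 51.3% ± 7.41 (SD, n = 7) in B and 83.8% ± 3.81 (SD, n = 8) in T cells. Igkv4-92 averaged 54.7% ± 12.6 and 85.5% ± 4.77 (SD, n = 8 each). The libraries of these 3 members did not overlap between the cell types. Those of Igkv4-80, with 36.4% to 78.4% for B and 66.7% to 86.4% for T cells, did overlap, as did those of Igkv4-70, at 48.7% ± 16.2 against 77.0% ± 8.75 (SD, n = 8 each).

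Members of other families were called as well. Igkv14-126 averaged 59.2% ± 10.1 in B and 86.8% ± 8.73 in T cells (SD, n = 8 each). Igkv12-89 averaged 51.0% ± 10.3 in B and 78.0% ± 5.16 in T cells, and Igkv2-109 59.7% ± 17.3 and 88.1% ± 8.39 (SD, n = 8 each). Within these genes the CpGs did not move alike. In Igkv14-126 the CpGs at 224 and 257 bases after the start stood at 91.0% and 86.1% in B and 93.3% and 87.9% in T cells, while that at 426, near the 3′ end, was at 6.41% in B and 82.5% in T cells. In Igkv12-89 the CpGs at 417 and 428 stood at 1.35% each in B cells and at 73.0% and 66.7% in T cells, while that at 286 was at 95.7% and 95.3%.

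Upstream of the start, the widest difference was that of Igkv14-126, and all 3 family 14 genes that could be tested were called. Igkv14-126 had 7 B cell libraries between 0% and 6.25% (median 0%) and 7 T cell libraries between 80% and 100% (median 90.9%). Its means were 2.10% ± 2.72 and 91.3% ± 7.53 (SD, n = 7 each), with an adjusted p of 6.08e-06 and an exact permutation p of 0.000583, the smallest that 7 against 7 can give. Igkv14-111 spanned 15.4% to 37.5% across B cell libraries (median 32.3%) and 81.2% to 100% across T cell libraries (median 92.2%), with an adjusted p of 4.23e-06 and an exact permutation p of 0.000155. The low CpGs of Igkv14-111 were the ones at -30 and -17 shown above, whereas its CpGs at -465 and -355 stood at 93.5% and 52.2% in B and 82.1% and 59.3% in T cells.

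Igkv11-125, the only member of family 11, spanned 7.69% to 52.2% across B cell libraries (median 25.5%) and 73.3% to 100% across T cell libraries (median 89.1%), with an adjusted p of 0.000132 and an exact permutation p of 0.000155. Igkv14-130 averaged 50.3% ± 10.6 (SD, n = 7) in B and 90.4% ± 6.18 (SD, n = 8) in T cells. Igkv1-88 averaged 57.2% ± 7.48 and 93.6% ± 4.97 (SD, n = 8 each). Igkv3-7, 118 kb from Igkc, had the lowest T cell level of the tested upstream windows, at 61.7% ± 6.84 (SD, n = 8) against 28.03% ± 10.8 (SD, n = 6) in B cells. Of the remaining called windows, differences ranged from -18.4 at Igkv3-4, the tested upstream window nearest to Igkc, to -36.7 at Igkv4-72. Between them lay Igkv20-101-2 at -31.8, Igkv5-43 at -25.9 and Igkv1-110 at -21.6. The call at Igkv5-43, with an adjusted p of 0.0472 and an exact permutation p of 0.00216, was lost under 20 of 25 alternative settings.

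Of the 11 members tested in both windows, 2 were called in both, Igkv14-126 and Igkv5-43, 2 over the gene alone, 3 upstream alone and 4 in neither. Some members were highly methylated in both cell types. Upstream of Igkv17-127 the level was 96.9% ± 3.13 in B and 95.5% ± 3.93 in T cells (SD, n = 8 each), and upstream of Igkv2-137, the farthest member, 90.8% ± 5.61 and 95.1% ± 2.61 (SD, n = 8 each). Neither passed the test. Igkv8-21 was the only tested member under 50% in T cells over the gene, at 44.2% ± 11.1 against 40.4% ± 12.3 in B cells (SD, n = 8 each; exact permutation p = 0.525). The largest rise by value, 8.95 at Igkv1-122 over the gene, did not pass the test (exact permutation p = 0.0942).

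Among the 30 members with 1 CpG in the gene, which were not tested, 5 were lower in B cells by at least 20 points over pooled calls and 1 was higher. The share among other genes with 1 CpG was not counted. Igkv10-96 stood at 7.02% of 57 calls in B and 69.7% of 76 in T cells. Igkv11-125 stood at 21.5% of 79 and 85.7% of 70, at a CpG 7 bases after its start. Igkv3-1, the member nearest to Igkc, was the one with the higher level in B cells, at 78.6% of 42 calls against 58.1% of 62.

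Because the low CpGs lay near the ends of the genes, levels were pooled over all members in bins of 200 bp outward from the start and the end, a layout chosen after the values had been seen and described without a test. In the 200 bp before the start, over 42 CpGs, B cell libraries averaged 35.0% ± 5.78 and T cell libraries 82.5% ± 1.15 (SD, n = 8 each). From 200 to 400 bp the means were 82.3% and 89.0%, and from 400 to 2000 bp they lay between 86.8% and 90.5% in B and between 81.6% and 88.6% in T cells. In the 200 bp after the end, over 44 CpGs, the means were 29.3% ± 3.64 in B and 70.7% ± 3.64 in T cells (SD, n = 8 each). From 200 to 400 bp after the end they were 80.2% and 83.2%. The low pooled level in B cells thus lay in the first bin on each side, and its extent is known only to the width of a bin. B cell libraries did not reach any T cell library there: upstream they ran from 28.4% to 43.4% against 80.2% to 83.9%, and downstream from 25.1% to 34.3% against 66.0% to 77.1%. From 200 to 400 bp upstream they did not overlap either, at 79.4% to 85.3% against 86.3% to 90.9%.

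**Figure D3:**
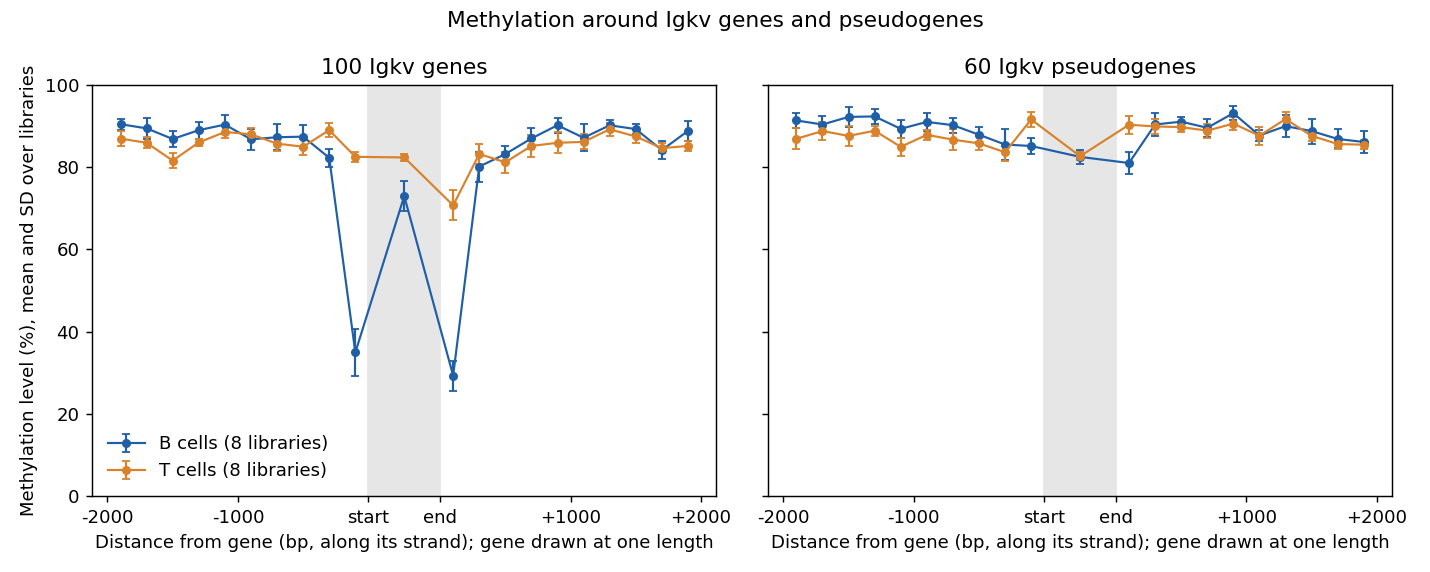
Pooled methylation level (%) in bins of 200 bp up to 2000 bp before the start and after the end, with the gene between, for the 100 Igkv genes and the 60 Igkv pseudogenes, as mean and SD over the 8 libraries of each cell type. B cells dip to 35.0% before and 29.3% after the Igkv genes, while in the pseudogenes they stand at 85.2% and 81.0%.

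The flanks of the pseudogenes of the same locus, pooled, were lower in B cells by fewer points. In the 200 bp before their annotated starts the means were 85.2% ± 2.01 in B and 91.6% ± 1.79 in T cells, over 43 CpGs, and in the 200 bp after their ends 81.0% ± 2.66 and 90.3% ± 2.17, over 44 CpGs (SD, n = 8 each). Their libraries did not overlap either, with B cells at 82.6% to 88.3% and T cells at 88.7% to 93.7% upstream, and at 77.8% to 86.4% and 87.3% to 92.8% downstream. Over the pseudogene itself 2 of 28 tested were called lower in B cells and none higher, and upstream none of 21 was called lower and 1 higher. Over the gene these were 7.14% lower against 3.41% of all genes, and upstream 4.76% higher against 3.92%. With at least 20 calls per cell type, 5 of 28 pseudogenes were lower in B cells by at least 20 points upstream, among them Igkv14-134-1 at 8.197% against 93.4%, and 5 of 28 downstream, among them Igkv11-114 at 3.31% against 88.6%. The median level over these 28 pseudogenes was 91.3% in B and 91.0% in T cells upstream (median difference +0.60), and 92.5% and 91.7% downstream (-1.02).

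Taken member by member, the 200 bp upstream held at least 20 calls of each cell type at 35 members. At 23 of these the B cell level was lower by at least 20 points and at 18 by at least 50 points, and at none was it higher by 20. The median was 27.7% in B and 88.8% in T cells. At 17 members the B cell level was under 20%, and at 1, Igkv6-17, the T cell level was too. Examples beside those printed were Igkv4-90 at 0% of 28 calls against 83.3% of 36, Igkv4-86 at 2.78% against 89.2%, Igkv4-53 at 4.88% against 89.8% and Igkv9-129 at 3.64% against 80.8%. Igkv8-18 had the opposite sign, at 95.5% in B and 78.6% in T cells. How often the flanks of genes outside the locus differ by as much was not counted, on either side.

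Downstream of the end, 35 members held enough calls, and 27 were lower in B cells by at least 20 points, 14 by at least 50 and none higher by 20. The median was 21.9% in B and 75.7% in T cells. Of the 14 members measured on both sides, 8 were lower on both, 1 upstream alone, 2 downstream alone and 3 on neither. The first 200 bp after the end are shown for 5 members because they place CpGs against the RSS, with the heptamer where present and CpGs in capitals: chr6:67896643-67896842 for Igkv14-126, chr6:67914053-67914252 for Igkv11-125, chr6:68017489-68017688 for Igkv1-122, chr6:67610509-67610708 for Igkv1-135 and chr6:67861660-67861859 for Igkv17-127, all on the plus strand.
Igkv14-126: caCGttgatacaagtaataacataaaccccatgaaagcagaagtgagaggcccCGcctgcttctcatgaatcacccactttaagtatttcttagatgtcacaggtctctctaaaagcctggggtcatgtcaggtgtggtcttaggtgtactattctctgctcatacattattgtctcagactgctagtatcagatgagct
Igkv11-125: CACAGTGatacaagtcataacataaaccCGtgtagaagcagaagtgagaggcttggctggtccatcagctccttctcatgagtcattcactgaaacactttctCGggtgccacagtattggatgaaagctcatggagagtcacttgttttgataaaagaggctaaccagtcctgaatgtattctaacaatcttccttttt
Igkv1-122: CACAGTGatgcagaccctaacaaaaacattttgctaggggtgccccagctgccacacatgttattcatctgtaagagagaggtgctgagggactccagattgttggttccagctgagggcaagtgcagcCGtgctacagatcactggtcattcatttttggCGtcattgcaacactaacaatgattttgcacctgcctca
Igkv1-135: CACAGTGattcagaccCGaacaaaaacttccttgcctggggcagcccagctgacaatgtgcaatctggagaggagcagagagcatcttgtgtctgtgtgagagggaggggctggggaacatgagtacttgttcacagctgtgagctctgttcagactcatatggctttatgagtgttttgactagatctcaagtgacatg
Igkv17-127: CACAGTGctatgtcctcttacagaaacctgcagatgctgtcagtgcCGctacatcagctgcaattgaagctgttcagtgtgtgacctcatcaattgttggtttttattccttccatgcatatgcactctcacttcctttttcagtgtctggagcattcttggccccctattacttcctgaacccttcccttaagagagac

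In Igkv1-135 the CpG 17 bases after the end lies between heptamer and nonamer, and it stood at 19.7% of 61 calls in B and 91.5% of 59 in T cells. In Igkv1-122 the CpGs at 130 and 162 stood at 15.4% and 11.7% in B and 88.2% and 69.5% in T cells, although the gene body and the 500 bp upstream of Igkv1-122 were called in neither direction. Igkv14-126 has CACGTTG in place of CACAGTG directly after its end, and its CpG at 3 lies within these letters. Its CpGs at 3 and 54 stood at 3.80% and 5.33% in B against 45.7% and 86.3% in T cells. In Igkv17-127 the CpG at 47 was low in both, at 2.63% and 22.2%. Igkv11-125 stood at 5.33% in B and 51.2% in T cells at 29 bases after the end and at 25% and 84.2% at 104.

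**Figure D4:**
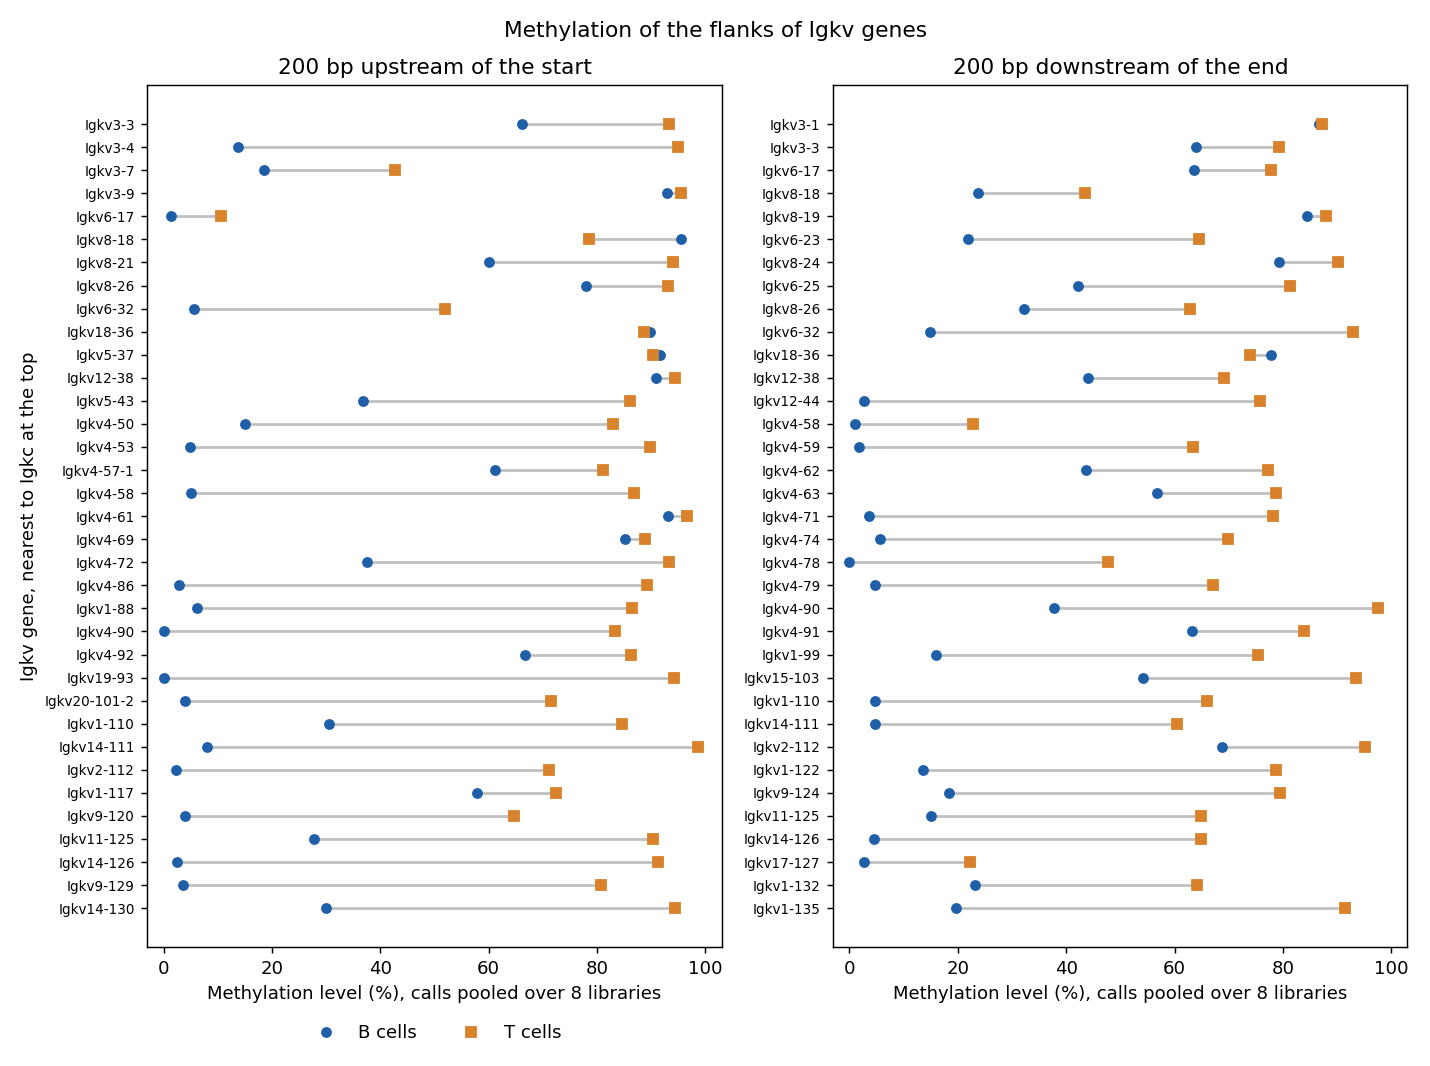
Methylation level (%, calls pooled over 8 libraries) of B cells (circles) and T cells (squares), joined by a line for each Igkv gene, in the 200 bp before the start (left) and after the end (right), for the 35 members on each side with at least 20 calls per cell type, nearest to Igkc at the top. Most circles lie far below the squares, whose medians are 88.8% upstream and 75.7% downstream.

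Single CpGs with at least 20 calls per cell type gave the same layout. Of 355 CpGs in the gene or the 500 bp upstream, 69 were lower in B cells by at least 20 points, 39 by at least 50, and 2 were higher by at least 20. In the last 100 bp before the start 14 of 17 were lower, with medians of 15.8% in B and 91.8% in T cells. Between 100 and 200 bp before the start 15 of 25 were lower, between 200 and 300 bp 3 of 26, and between 300 and 500 bp 0 of 60. In the gene, 11 of 27 in the first 100 bp, 8 of 168 in the middle and 18 of 32 in the last 100 bp were lower. After the end, 4 of 4 within 28 bp, the reach of a heptamer, spacer and nonamer, 10 of 13 from 29 to 100 bp and 16 of 26 from 101 to 200 bp were lower. Those within 28 bp include CpGs of Igkv14-126 and Igkv4-91 at 3 and 4 bases after the end, where the letters CACAGTG hold no CpG. The CpGs far from both ends were thus the least different. The share of such CpGs among other genes was not counted.

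The octamer letters ATTTGCAT, or ATGCAAAT on the other strand, were found in the 500 bp upstream of 72 of the 100 members, against 3.98% of 2964 other genes of chromosome 6. The nearest match always read ATTTGCAT on the gene strand, with its first base between 109 and 46 bases before the start and a median of 92. In the window from 250 bp before to 50 bp after the start, 73 members held it, against 1.74% of 32851 RefSeq promoters of GRCm38.p6. Families 6, 7, 8 and 18 held none. With the octamer, 16 of 37 tested members were called over the gene and 9 of 13 upstream, and without it 3 of 20 and 2 of 7. In the 200 bp upstream, 19 of 26 measured members with the octamer and 4 of 9 without it were lower in B cells by at least 20 points, with median differences of -63.6 and -15.1. Igkv6-32 and Igkv1-88 were among the members without it that were low in B cells, at 5.56% against 52.0% and 6.12% against 86.4%. The heptamer CACAGTG directly followed 84 members, against 0.439% of the other chromosome 6 genes. In 32 members ACAAAAACC stood where a heptamer and 12 further bases would place it, whether or not the heptamer was exact. Downstream, 21 of 28 measured members with the heptamer and 6 of 7 without it were lower by at least 20 points. These matches are descriptions of exact letters, so members counted as without the octamer or heptamer can hold a near match. Family, octamer and position vary together.

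Called members were spread along the locus. Of the 34 members nearest to Igkc, 21 were tested over the gene and 3 called lower, with a median difference of -2.56. Of the next 33, which hold 23 of the 26 genes of family 4, 17 were tested and 9 called (median -18.8), and of the 33 farthest 19 were tested and 7 called (median -5.03). Spearman's rho between distance and difference was -0.19 over 57 genes and -0.14 over 20 upstream windows, given as a description because neighbouring genes share libraries and family. At the near end Igkv3-5, Igkv3-9 and Igkv6-13 differed by 1.55, 7.72 and 2.95 and were not called. At the far end Igkv1-135 was called at -16.7 (adjusted p = 0.018, exact permutation p = 0.0014), whereas Igkv1-133 at -1.67 and Igkv1-132 at -4.58 were not. By strand, 14 of 40 tested members opposite to Igkc and 5 of 17 on its strand were called over the gene, and 3 of 7 (median difference -7.32) and 8 of 13 (-21.6) upstream.

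Across the 64 windows of 50 kb from the first member to Igkc, methylation as a whole was not low in B cells. The median was 88.6% in B and 86.9% in T cells. There were 23 windows called higher in B cells, or 35.9% against 17.7% of all windows, and 2 called lower, against 4%. The window that holds Igkc and Igkv3-1, chr6:70700001-70750000, averaged 68.9% ± 4.97 over the B and 85.1% ± 1.09 over the T cell libraries (SD, n = 8 each), at an adjusted p of 2.83e-05 and an exact permutation p of 0.000155. Within this window, chr6:70704001-70705000, which holds the CpG of Igkv3-1, averaged 86.7% in B and 79.2% in T cells. The stretch that holds Igkc, chr6:70726001-70727000, averaged 74.4% and 96.3%. The other 63 windows differed by between -1.58 and 4.20. The low levels at the ends of the Igkv genes were short stretches in a region that was highly methylated in both cell types.

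**Figure D5:**
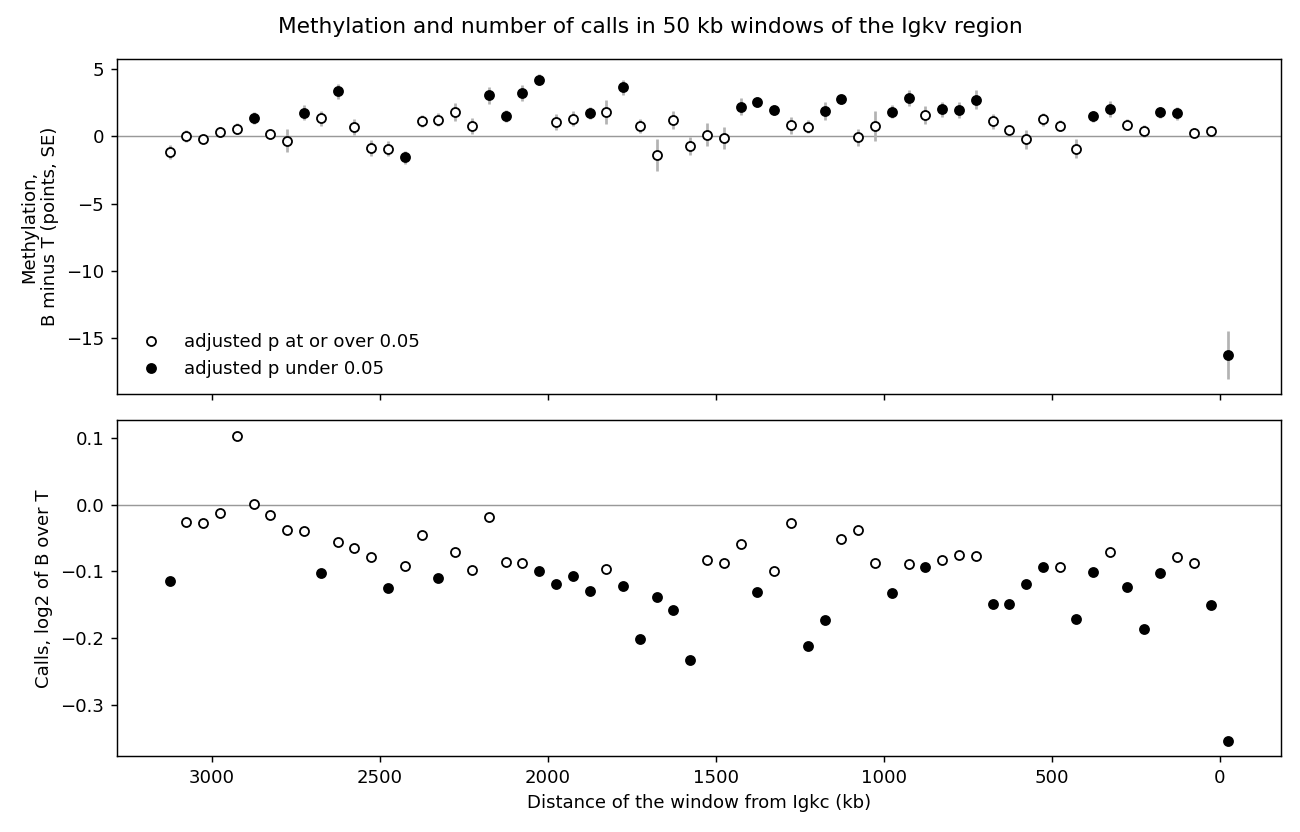
Difference in methylation level (percentage points, B minus T) and log2 ratio of calls (B over T) in windows of 50 kb against distance from Igkc (kb), with filled symbols at an adjusted p under 0.05 and bars for the SE of the methylation difference. The window at Igkc differs by -16.2 points and -0.35 on the log2 scale, and the remaining windows stay within 5 points of 0.

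The number of calls over a region depends in part on the copies of DNA that map there, which joining can remove. Over single members it did not pass the test: of 65 with enough calls, edgeR's quasi-likelihood test called 0 with fewer and 0 with more calls in B cells, against 0.858% and 1.13% of all genes. At an unadjusted p under 0.05 there were 3 members, and DESeq2 called 0. The median log2 ratio was -0.07, with a range of -0.64 to 0.37. In the 50 kb windows, which hold more calls, 29 of 64 had fewer calls in B cells, against 4.02% of all windows, and 0 had more, against 3.59%. The median log2 ratio was -0.09, or 6.25% fewer calls, against 0.0036 over all windows. Of the 64 ratios 62 were below 0, and the share of all windows below 0 was not counted. Without the female oxBS T cell library 16, 18 windows were called, and without sex and assay in the model 14. Within one sex or assay, 16 were called in female, 2 in male, 6 in BS and 12 in oxBS libraries. The window at Igkc had 21.8% fewer calls, with 11.7 to 13.7 of every 1000000 calls in B and 15.4 to 16.9 in T cell libraries (adjusted p = 9.98e-10). Within it, the ratio of B over T calls was 0.91 at chr6:70704001-70705000, by Igkv3-1, and 0.71 at chr6:70726001-70727000, by Igkc. In 3 of the 64 windows all B cell libraries lay below all T cell libraries, against 0.254% of all windows. Copies of DNA were not measured in another way, and no cause of the differences in calls was tested.

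No member was called for sex or assay. For sex, 0 members were called over the gene and 0 upstream, against 0.72% and 1.06% of all windows. For assay it was 0 and 0, against 0.00215% and 0%. The cell type difference was called different between sexes at 0 members in both windows, against 0% of all windows in each, and different between assays at 0 members, against 1.68% over the gene and 0% upstream. At an unadjusted p under 0.05 these 4 terms gave 2, 0, 1 and 2 members over the gene and 0, 1, 0 and 0 upstream.

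Other V genes are rearranged by the same recombinase. Of 62 tested Ighv genes, which encode the heavy chain variable segments and are joined in B cells, 4 were called lower and 11 higher in B cells over the gene, with a median difference of +0.94. These were 6.45% and 17.7% of the tested Ighv genes, against 3.41% and 12.7% of all genes, whose median difference was +0.72. Upstream, 3 of 22 or 13.6% were lower, against 2.22% of all genes. Of the T cell receptor genes, 15 of 18 Trbv and 37 of 59 Trav genes were called higher in B cells over the gene, at medians of +26.1 and +15.8. Upstream, 6 of 8 Trbv and 6 of 26 Trav genes were higher, against 3.92% of all genes. The calls over Ighv genes were fewer in B cells at 44 of 85 (median log2 ratio -0.75), those over Trbv more at 11 of 21 (0.80) and those over Trav more at 25 of 68 (0.54), where 0.858% of all genes had fewer and 1.13% more. Whether these sets differ from the Igkv genes was not tested.

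Among other light chain genes, 11 of 13 tested were lower in B cells over the gene and 7 of 9 upstream, and none was higher. Windows of neighbouring segments, such as the Igkj segments, may share CpGs, which was not counted. Igkc, the constant segment, stood at 76.4% ± 8.88 in B and 96.2% ± 1.69 in T cells (SD, n = 8 each). The 500 bp upstream of Igkj1, the first joining segment, stood at 24.9% ± 15.6 and 97.8% ± 2.53, and those of Igkj2 at 28.2% ± 9.04 and 94.1% ± 2.15 (SD, n = 8 each). Upstream of Igll1, a part of the surrogate light chain, the level was 1.17% against 69.98%. Of the regulators that act at the locus, 5 of 14 were lower and 4 higher over the gene and 5 lower and 1 higher upstream. Upstream of Pou2af1, which encodes OCA-B, the level was 1.29% in B and 41.0% in T cells, and upstream of Spib, an ETS factor of B cells, 18.6% and 93.4%. The regulator called higher upstream was Ikzf1, at 34.9% in B and 17.8% in T cells. Over the gene Ikzf1 was also higher, at 58.0% and 32.4%. The genes of Oct-1 and Oct-2, Pou2f1 and Pou2f2, were under 2% upstream in both cell types, and Pou2f2 was called lower over the gene, at -3.70. Of 13 V(D)J recombination genes, 2 were lower (Rag1 by -3.77 and Rag2 by -4.77) and 4 higher over the gene, and none was called upstream. For all these lists, the shares over all genes were 3.41% lower and 12.7% higher over the gene, and 2.22% and 3.92% upstream.

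Most markers of B against T cells matched the labels. Of B cell markers with a testable upstream window, 6 of 7 were lower in B cells (Ms4a1 1.58% against 95.6%), and of T cell markers 6 of 7 were higher (Cd3e 86.5% against 2.77%). The CD8 gene Cd8b1 stood at 4.12% upstream in these CD4+ T cells and at 82.9% in B cells, and Cd4 at 12.1% and 74.4%. These levels do not tell CD4+ from CD8+ T cells. Markers of NK, myeloid and erythroid cells were not called upstream (0 of 1, 0 of 4 and 0 of 2 tested). Over the gene, calls lower and higher in B cells were 7 and 1 of 8 B cell markers, 0 and 8 of 8 T cell markers, 0 and 2 of 2 CD8 markers, 1 and 0 of 2 NK, 2 and 1 of 4 myeloid and 1 and 0 of 2 erythroid markers. A part of other cells in the Igkv levels was not tested. In bulk cells, a level between the extremes does not tell joined from unjoined alleles or a share of cells from a partial level in each.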

How the data were processed

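DNA from 16 libraries of B and T cells was analysed by WGBS. The authors trimmed reads with Trim Galore 0.6.0, mapped them to mm10 (GRCm38) with Bismark 0.20.0, used SAMtools 1.3.1 (versions from the submitters' processing notes), and required a mapping quality of 10 or more. The values they deposited are counts, the numbers of unmethylated and of methylated calls at each CpG, with strands added and no normalization. Libraries were treated as replicates, because no mouse is named and BS and oxBS libraries may share mice. Within the 8 pairs of one group, between 5.80% and 6.79% of CpGs had equal calls, so none was a duplicate.

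Calls at the 21867550 CpGs of the reference were pooled over each gene of GENCODE vM21 and over the 500 bp upstream of its annotated start. Windows with 2 or more CpGs and, for B as for T cells, no fewer than 6 libraries with 10 calls were tested with a quasi-binomial logistic model (cell type, sex, assay; dispersion at least 1) with the Benjamini-Hochberg adjustment over all windows, and libraries under 10 calls were left out of a window. Two-sided exact permutation tests of library levels are given beside named members. Calls were compared with edgeR 4.0.16 (TMM, quasi-likelihood F test, mean of at least 10 calls) and DESeq2 1.42.0 in R 4.3.3, and the rest in Python 3.11.15 with SciPy 1.17.1. The tests were tried on simulated data. Named members were the 10 called with the largest difference per window, the 3 lowest in each cell type, the 3 nearest to and 3 farthest from Igkc, and up to 5 called by calls or up to 3 of the minority sign, of which there were none. Other members are named as examples chosen after their values were seen. Members and lists were chosen with earlier results of these data known. Sequences came from the mm10 genome, since no member matched the RefSeq promoter table. Both male BS libraries of B cells list 242 and 243 positions outside the chromosomes, against 16429 to 17017 in the others, and such positions were left out. Counting precision alone is covered by the call numbers, as reads were not tagged by molecule.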

Additional observations from a re-analysis of the deposited data

Results flagged for a closer look

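Of 72 groups of libraries checked at the named members, 8 held a library far from the others by the gap to its nearest neighbour relative to the whole range, and chance marks about 1 in 20. For Igkv4-80 over the gene, the male oxBS B cell library 2 stood at 78.4%, and the other 7 between 36.4% and 51.7%. For Igkv3-5, the female BS B cell library 10 stood at 69.2%, against 84.2% to 95.5% in the others. For Igkv3-9, the male BS B cell library 1 stood at 75%, against 88.5% to 100%. For Igkv1-132, the female oxBS B cell library 11 stood at 71.4%, against 84.6% to 93.8%. For Igkv2-109, the female oxBS T cell library 14 stood at 68.4%, against 85.7% to 94.7%. Upstream of Igkv20-101-2, the male BS B cell library 1 stood at 27.3%, against 51.7% to 66.7%, and the male BS T cell library 7 at 73.3%, against 84.6% to 92.3%. Upstream of Igkv5-43, the male oxBS T cell library 6 stood at 100%, against 90% to 92.9%. No cause was tested for any of them.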

How the results depend on the processing

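No paired analysis was possible because the libraries are numbered uniquely from 1 to 16 and the groups share no number. The 19 members lower in B cells over the gene became 8 with a minimum of 20 calls (26 tested), 1 in BS, 3 in oxBS, 1 in female and 1 in male libraries alone, and between 13 and 20 otherwise. The 11 upstream became 0 with a minimum of 20 calls (3 tested), 7 by exact permutation within sex and assay, 1 in BS, 2 in oxBS, 1 in female and 1 in male libraries alone and 4 in 250 bp (6 tested), and between 8 and 15 otherwise. Apart from the permutation test, these settings hold fewer libraries or shorter or fewer windows by construction. The permutation within sex and assay has few splits, with at most 2 libraries of each cell type per sex and assay, which limits how small its p can be. No setting called a member higher in B cells. A minimum of 1 CpG, added after seeing the data, left 19 and 11. The pooled upstream difference of -19.3 was -23.7 as a mean over genes and -22.3 without low-depth CpGs. The 29 windows of 50 kb with fewer calls became 14 without covariates, 6 in BS, 12 in oxBS, 16 in female and 2 in male libraries alone, and between 18 and 29 with a library left out. The 0 with more calls became 1 with total autosomal calls as library size, and between 0 and 1 with a library left out, the 1 being without the female oxBS B cell library 11. In windows of 25 kb, 6 were lower and 37 higher in methylation, and in windows of 100 kb 13 were higher. Of 948 values for named members, 839 kept direction and call, 96 lost the call and 13, none of them called, changed sign. The sign changes were Igkv1-88 over the gene with a minimum of 5 calls (0.33), in oxBS (3.04) and male libraries (4.73) and without T cell library 16 (0.35), Igkv1-133 in BS (0.74), Igkv3-5 in BS (-3.67) and female libraries (-2.62), without both male BS B cell libraries (-0.18) and without T cell library 6 (-0.80), and upstream Igkv6-23 in BS (0.77) and male (0.73) and Igkv17-127 in oxBS (-1.76) and male libraries (-0.14). With a library left out, Igkv1-88 over the gene lay between -8.34 and 0.35 and Igkv3-5 between -0.80 and 4.06. The cause was not tested. Few CpGs and few calls together left 34 members with no testable window.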
